A study of Homo sapiens with 12 samples.

Results

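Transcript levels of the enzymes that write, copy and remove DNA methylation were followed in cell lines described as ovarian cancer (OC) and treated with quinacrine (QC). The 7 genes DNMT1, DNMT3A, DNMT3B, UHRF1, TET1, TET2 and TET3 were chosen by name, and each was matched through its Ensembl ID, so that 7 of the 60669 gene IDs in the count table make up the set. All 7 passed the filter on low counts. The RNA-seq data hold 12 libraries from 6 lines that the study names as OC lines. They are the chemosensitive lines HeyA8, SKOV3 and OV2008 and their isogenic resistant partners HeyA8_MDR, SKOV3_TR and OV2008_C13. The study describes HeyA8_MDR as resistant to carboplatin, SKOV3_TR to taxol and OV2008_C13 to cisplatin, so the resistant group mixes different selecting drugs. Every line was given either QC, an antimalarial drug, at 8 µM for 6 h, or vehicle, which the sample labels call control. Each line and treatment has 1 library, so no line has replicates, and p-values measure the spread between lines or between the 2 libraries of a line.

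DNA methylation at CpG dinucleotides is copied to the new strand after replication by DNMT1, which is brought to hemimethylated sites by UHRF1. DNMT3A and DNMT3B place methyl groups on previously unmethylated sites, using S-adenosylmethionine as the methyl donor. TET1, TET2 and TET3 oxidize 5-methylcytosine with 2-oxoglutarate, oxygen and iron, the first step towards its removal, and silencing of tumour suppressor genes by promoter methylation is well known in OC.

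DNMT1 lies on chromosome 19 (10133346 to 10194953, minus strand) and UHRF1 on the same chromosome (4903080 to 4962154, plus strand). DNMT3A is at 25227874 to 25342590 on chromosome 2 (minus), and DNMT3B at 32762385 to 32809356 on chromosome 20 (plus). TET1 lies on chromosome 10 from 68560337 to 68694487, TET2 on chromosome 4 from 105145875 to 105279803 and TET3 on chromosome 2 from 73983631 to 74135498, each on the plus strand. All these coordinates are those of RefSeq on GRCh38.p14. Exons of a neighbour on the same strand cover 83 bases of DNMT1 (S1PR2, 0.54% of its exon bases) and 390 bases of TET3 (ENSG00000235499, 3.01%). Introns and UTRs are part of these spans, and the counts do not separate them.

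The windows of 250 bases before the DNMT1 start (chr19:10194954-10195203, minus strand) and before the first listed UHRF1 start (chr19:4909251-4909500, plus strand) are shown because these genes were the members whose levels moved most closely together over the 12 libraries. Both are RefSeq sequences of GRCh38.p14, written 5′ to 3′ with the start just after the last base, and the capitals mark a match to an E2F-type word.
DNMT1: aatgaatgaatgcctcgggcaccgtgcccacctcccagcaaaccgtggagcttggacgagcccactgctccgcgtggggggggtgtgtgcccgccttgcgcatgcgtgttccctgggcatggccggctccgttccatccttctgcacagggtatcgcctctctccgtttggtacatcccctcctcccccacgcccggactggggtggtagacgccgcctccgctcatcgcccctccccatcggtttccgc
UHRF1: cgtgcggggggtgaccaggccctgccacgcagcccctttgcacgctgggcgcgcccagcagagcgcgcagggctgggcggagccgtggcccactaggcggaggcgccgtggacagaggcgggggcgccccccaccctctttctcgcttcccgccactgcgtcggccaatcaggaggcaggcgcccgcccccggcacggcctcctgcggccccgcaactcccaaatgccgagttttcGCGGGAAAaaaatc

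E2F factors are transcription factors of the entry into S phase. The words searched were TTTCCCGC, TTTCGCGC, TTTGCCGC and TTTGGCGC, read on both strands, where they appear as GCGGGAAA, GCGCGAAA, GCGGCAAA and GCGCCAAA. A window before a start held at least 1 of these words in 2 of 18 member windows, both of UHRF1, against 2.79% of the 35116 windows in the RefSeq table. GCGGGAAA lay 14 bases before the first UHRF1 start, and the window of the second UHRF1 start held TTTCGCGC 160 bases before it. Every listed UHRF1 window, the one shown included, lies inside the annotated span of UHRF1, which begins at 4903080. The DNMT1 window held none of the words, which says only that these letters are not in it. The DNMT1 window has 21 CpG dinucleotides and the UHRF1 window 28, against a median of 11 over all windows. The single listed window of DNMT3B (chr20:32779602-32779851, plus strand), which lies inside the gene's annotated span, has 3.

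Libraries held between 17782556 and 30585059 counts on genes. The QC library of HeyA8 stood apart. Of the CPM gap between the vehicle libraries of HeyA8 and HeyA8_MDR it covered a median of 39.6% over 285 genes that HeyA8_MDR had 8-fold or more above HeyA8, and 52.7% over 218 genes that were 8-fold or more below. In the other QC libraries the same medians, taken towards the partner line, ran from 0% to 31.2%. Fitted values that rest on this library are therefore also given without it or without HeyA8. The libraries of OV2008 and OV2008_C13 had all 11 squamous epithelial markers above 1 CPM, with a summed level of 4657 to 17710 CPM against 114 to 324 CPM in the other lines. PAX8, a Müllerian lineage factor, was at 7.56 to 24.8 CPM there and at 234 to 480 CPM in the other lines. The ovarian epithelial markers, a list of 13 genes with PAX8 among them, did not share 1 direction. SOX17, KRT7 and MECOM were also lowest in OV2008 and OV2008_C13, while EPCAM, CDH1, KRT8 and KRT18 were highest there. The list summed to 3575 to 6770 CPM in these lines and to 1773 to 2696 CPM in the others. OC is thus the study's name for OV2008 and OV2008_C13, and from these markers their tissue of origin is uncertain. The 9 immune markers summed to between 0.363 and 2.98 CPM in every library.

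DNMT1, the maintenance methyltransferase, was the most abundant member per length in 11 of the 12 libraries. All levels are CPM, counts scaled to a common library size with TMM factors. Its level was 369 CPM in the vehicle and 411 CPM in the QC library of OV2008, and 328 and 282 CPM in OV2008_C13. The corresponding levels were 190 and 183.5 CPM in HeyA8, 179 and 202.5 CPM in HeyA8_MDR, 179.5 and 205 CPM in SKOV3_TR, and 150.2 and 127 CPM in SKOV3. The order of the lines was thus OV2008, OV2008_C13, then HeyA8, SKOV3_TR and HeyA8_MDR with overlapping libraries, and SKOV3 lowest. In bulk RNA, fewer cells in a state and less transcript per cell cannot be told apart.

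UHRF1, which recruits DNMT1, was at 96.2 and 104 CPM in OV2008 (vehicle, then QC) and at 115.5 and 81.4 CPM in OV2008_C13. It was at 41.2 and 22.5 CPM in HeyA8, at 22.4 and 21.9 CPM in HeyA8_MDR, at 15.3 and 25.9 CPM in SKOV3_TR and at 8.12 and 6.40 CPM in SKOV3. The OV2008 pair was highest and overlapped, SKOV3 was lowest in both of its libraries, and the other lines lay between them, with SKOV3_TR overlapping HeyA8 and HeyA8_MDR. The highest and the lowest lines were thus of the same families for both maintenance factors.

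The de novo enzymes had another order. DNMT3A was at 39.8 CPM in the vehicle and 41.2 CPM in the QC library of SKOV3 and at 59.5 and 38.3 CPM in SKOV3_TR, and these lines overlapped. It was at 30.2 and 26.2 CPM in HeyA8, 22.5 and 23.8 CPM in HeyA8_MDR, 12.2 and 18.9 CPM in OV2008, and 3.26 and 6.10 CPM in OV2008_C13. Below SKOV3 no neighbouring lines in this order overlapped.

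DNMT3B, the other de novo enzyme, was at 209 CPM in the vehicle and 125 CPM in the QC library of SKOV3_TR, the highest of all lines, followed by SKOV3 at 49.2 and 80.7 CPM. It was at 20.7 and 12.5 CPM in OV2008, 24.6 and 12.3 CPM in OV2008_C13, 11.03 and 6.76 CPM in HeyA8, and 8.36 and 6.75 CPM in HeyA8_MDR. Within each of these last families the libraries of the sensitive and the resistant line overlapped. In the SKOV3_TR vehicle library DNMT3B was the only member above DNMT1 per length, at 48.2 against 34.0 CPM per kb of transcript.

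TET1 was the least abundant member per length in every library. It was at 8.74 and 8.86 CPM in SKOV3 (vehicle, then QC), 4.87 and 6.15 CPM in SKOV3_TR, 3.19 and 1.97 CPM in HeyA8, and 1.14 and 0.711 CPM in HeyA8_MDR. The OV2008 libraries had 2 counts in vehicle and 10 in QC, and those of OV2008_C13 had 2 and 0. No fold is given for TET1 in that family. The order SKOV3, SKOV3_TR, HeyA8, HeyA8_MDR held without overlap.

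TET2 had the smallest ratio of highest to lowest library among the members. It was at 46.1 and 38.4 CPM in HeyA8 (vehicle, then QC), 17.9 and 25.8 CPM in HeyA8_MDR, 33.9 and 31.0 CPM in SKOV3, and 27.5 and 31.1 CPM in SKOV3_TR. OV2008 had 27.1 and 41.5 CPM and OV2008_C13 had 24.7 and 52.0 CPM. The lines overlapped in a chain, with HeyA8_MDR lowest in vehicle.

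TET3 was at 86.9 CPM in the vehicle and 118 CPM in the QC library of OV2008, above all other lines. It was at 68.6 and 60.6 CPM in HeyA8, 71.2 and 58.9 CPM in HeyA8_MDR, 68.6 and 67.0 CPM in SKOV3, and 58.1 and 66.7 CPM in OV2008_C13. Neighbours among these lines overlapped, apart from SKOV3, whose libraries both lay just above those of OV2008_C13. SKOV3_TR was lowest, at 27.8 and 21.2 CPM, below every other library.

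**Figure D1:**
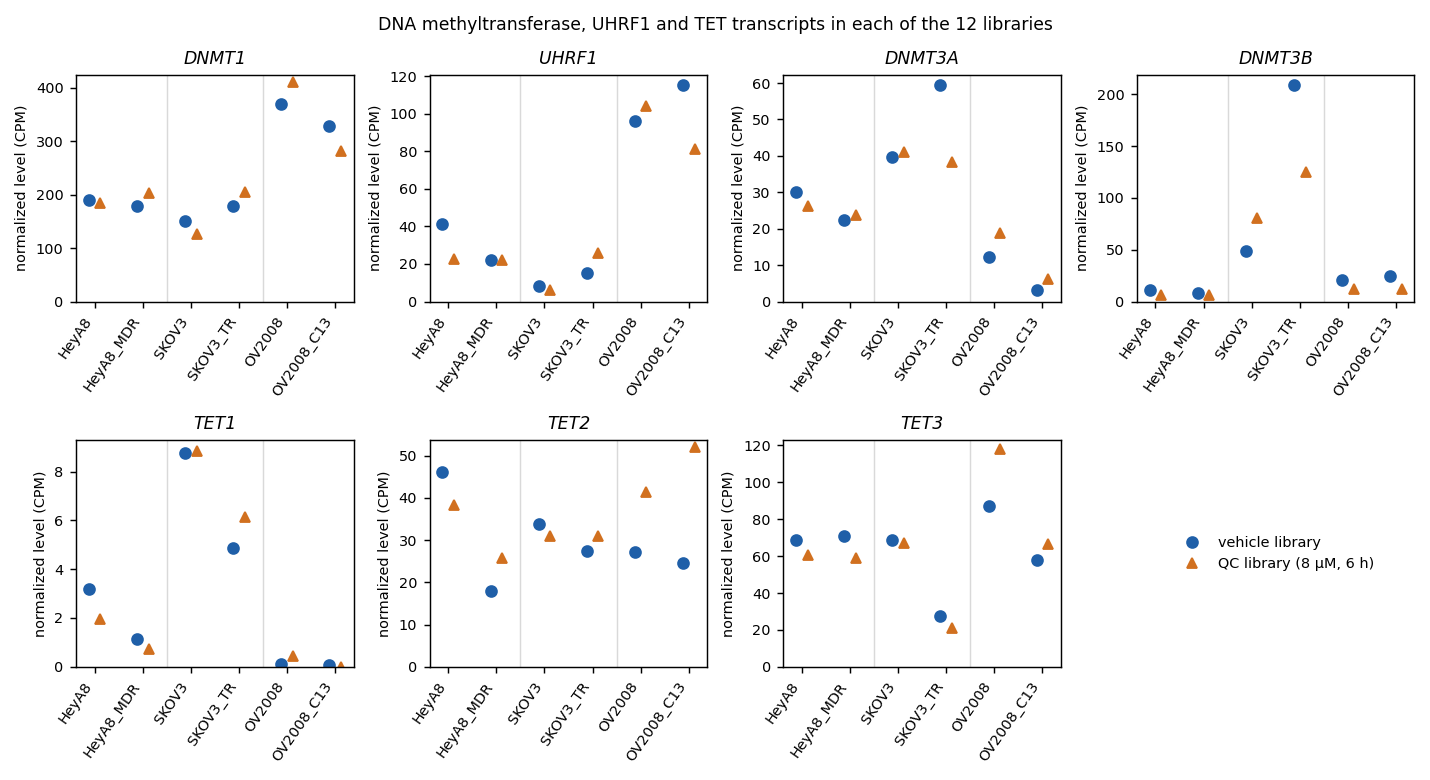
Normalized level (CPM, linear axis from 0) of each of the 7 genes in the 12 libraries, with lines along the x axis, circles for vehicle and triangles for QC libraries, and 1 library per point. DNMT3B was highest in SKOV3_TR (209 and 125 CPM), TET3 lowest there (27.8 and 21.2 CPM), and DNMT1 and UHRF1 were highest in OV2008 and OV2008_C13.

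Across the 12 libraries, log2 levels of DNMT1 and UHRF1 had a Pearson r of 0.948, DNMT3A and TET1 one of 0.907, and UHRF1 and TET1 one of -0.861. The points come from 3 families with 4 libraries each, and lines share a family and libraries a line, so these values describe the families as much as the libraries. After each family's mean was subtracted, r was 0.741 for DNMT1 and UHRF1, 0.564 for DNMT3A and TET1, and 0.0972 for UHRF1 and TET1. With the 3 families pooled in this way, the strongest relations were between the maintenance factors and, with the opposite sign, between UHRF1 and TET3 (r = -0.722). TET3 spread most in the SKOV3 family, from 4.41 to 6.10 log2 CPM. It ran from 5.86 to 6.89 in the OV2008 family and from 5.88 to 6.155 in the HeyA8 family. TET1 had 10 counts or fewer in each library of OV2008 and OV2008_C13, where its log2 level depends on the prior count. Every r of TET1, here and below, carries that limit.

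The genes whose levels were most like UHRF1 were GNPNAT1 (r = 0.984), ORC1 (0.982), a subunit of the replication origin complex, and RFC3 (0.977), a subunit of the clamp loader. For DNMT1 they were the arginine methyltransferase PRMT1 (0.982), DKC1 (0.978) and LY6E (0.978). DNMT3B was most like FAM53B (0.979), TOM1L1 and ADRA2C (both 0.971), and DNMT3A most like KLHL24 (0.978), PHF21A (0.976) and ZNF320 (0.962). These are the highest values among 18720 genes over the same 12 libraries.
TET1 was most like ZBTB20 (0.990), HPS3 (0.979) and PCDHGA5 (0.977), TET2 most like SRFBP1 (0.948), UBA6 (0.910) and SLMAP (0.874), and TET3 most like SUPT6H (0.962), IL4R (0.958) and NSD1 (0.956), a histone H3 lysine 36 methyltransferase. With family means subtracted, TET3 and NSD1 had an r of 0.967 and TET2 and SRFBP1 one of 0.949.

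A list of 25 genes of S phase and proliferation, such as MCM2, CDC6 and MKI67, was set beside the members. With the mean log2 level of this list, UHRF1 had an r of 0.961 and DNMT1 one of 0.939 over the 12 libraries, and 0.893 and 0.703 with family means subtracted. Within families DNMT3B had an r of 0.768 with the list and TET3 one of -0.897, while over all libraries these were -0.22 and 0.137. DNMT3A, TET1 and TET2 had values of -0.0416, -0.186 and -0.113 within families. These values pool the 3 families and weigh most the one that spread most. The mean of the list ran from 4.48 to 6.23 log2 CPM in the SKOV3 family. It ran from 5.42 to 5.82 in the HeyA8 family and from 6.955 to 7.44 in the OV2008 family. No r was taken within a single family. The list was lowest in SKOV3, where UHRF1 and DNMT1 were lowest too.

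**Figure D2:**
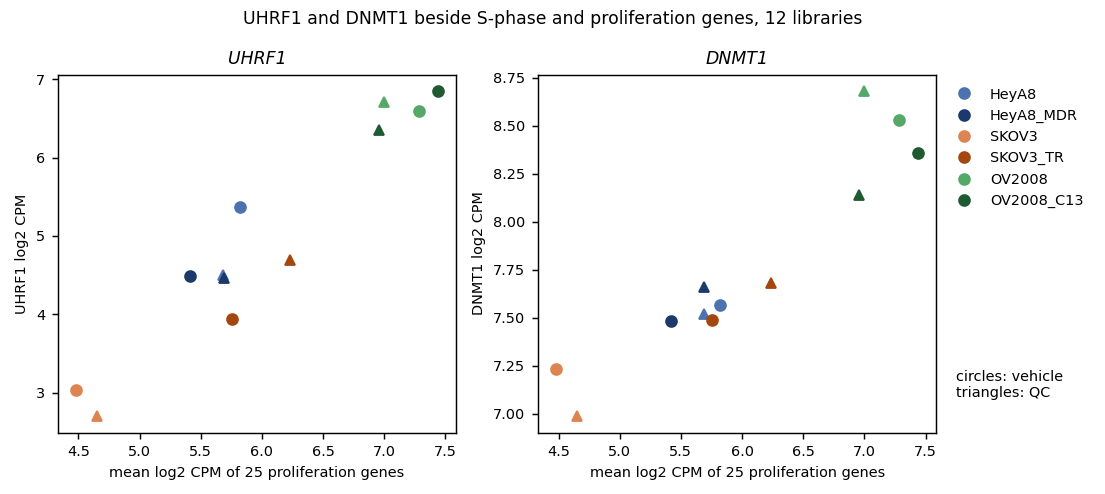
Log2 CPM of UHRF1 (left) and DNMT1 (right) against the mean log2 CPM of the 25 proliferation genes, with 1 point per library, circles for vehicle and triangles for QC, and colours for lines. The SKOV3 libraries lie lowest on both axes and those of OV2008 and OV2008_C13 highest (r = 0.961 and 0.939, 12 libraries).

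Whether the members differed between a resistant line and its parent was asked first within each family. The edgeR quasi-likelihood fit took the vehicle and QC libraries of each line together, with 1 term per line and 1 for QC, so its p-values concern these libraries of single lines and not resistance in general. In SKOV3_TR against SKOV3, DNMT3B and UHRF1 were higher and TET3 was lower, so that 3 of 7 members passed an adjusted p of 0.05. In that pair 31.5% of all 18720 genes passed, so the count of 3 of 7 is not read as particular to the members.

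DNMT3B was 4.25-fold higher in SKOV3_TR than in SKOV3 in the vehicle libraries and 1.55-fold higher in the QC libraries. The fitted log2 fold change was 1.25 (SE 0.334, adjusted p = 0.0134, edgeR). UHRF1 was 1.88-fold higher in vehicle and 4.00-fold higher in QC, with a log2 fold change of 1.52 (SE 0.328, adjusted p = 0.00428, edgeR). Both libraries of SKOV3_TR lay above both libraries of SKOV3 for each of these genes.
TET3 was at 0.406 of its SKOV3 level in the vehicle and 0.317 in the QC libraries of SKOV3_TR, a log2 fold change of -1.47 (SE 0.229, adjusted p = 0.000555, edgeR). DNMT1 had a log2 fold change of 0.47 (SE 0.196) that missed the threshold with edgeR (adjusted p = 0.0872) and passed with DESeq2 (0.50, adjusted p = 0.0388). DNMT3A, TET1 and TET2 did not pass in this pair.

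Proliferation genes moved with these members. Of the 25 genes of that list, 18 were higher and 0 lower in SKOV3_TR at an adjusted p under 0.05 (edgeR), with a median log2 fold change of 1.48 against 0.02 over all genes. Their summed level was 1015 and 1846 CPM in SKOV3 and 2797 and 4355 CPM in SKOV3_TR (vehicle, then QC). Named by smallest p, CDT1 had a log2 fold change of 2.52, RRM2 of 3.51 and MCM7 of 2.17. The part of proliferation in the UHRF1, DNMT1, DNMT3B and TET3 differences was not tested.

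In OV2008_C13 against OV2008, DNMT3A was lower, and it was the 1 of 7 members that passed, where 9.46% of all genes did. With an unadjusted p under 0.05 the count was 3 of 7, TET1 with its few counts among them, where 25.4% of all genes passed. DNMT3A was at 0.274 of its OV2008 level in the vehicle and at 0.327 in the QC libraries, a log2 fold change of -1.74 (SE 0.334, adjusted p = 0.00818, edgeR). In counts, OV2008_C13 had 98 and 162 and OV2008 had 217 and 428 (vehicle, then QC). TET3 was at 0.668 and 0.564 of its OV2008 level, with a log2 fold change of -0.72 that missed the threshold with edgeR (adjusted p = 0.0629) and passed with DESeq2 (-0.75, adjusted p = 0.0191), which called 14.3% of all genes in this pair. The squamous markers also differed in this pair, with 5 of 11 lower and 0 higher in OV2008_C13 at an adjusted p under 0.05 and a summed level of 5148 against 17710 CPM in vehicle. Their part in the DNMT3A difference was not tested.

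In HeyA8_MDR against HeyA8, 0 of 7 members passed an adjusted p of 0.05 with edgeR, where 4.08% of all genes did, and 2 of 7 had an unadjusted p under 0.05, where 23% of all genes did. These were TET2 and TET1, both with lower levels in HeyA8_MDR. TET2 was at 0.390 of its HeyA8 level in vehicle and 0.674 in QC, a log2 fold change of -0.99 (SE 0.300, adjusted p = 0.0807, edgeR). Without the HeyA8 QC library it was -1.33 (adjusted p = 0.0283), and DESeq2 on all libraries also called it (adjusted p = 0.0440). The share of all genes called rose too under these settings, from 4.08% to 9.33% without that library and to 9.49% with DESeq2. TET1 had 72 and 54 counts in HeyA8 and 22 and 12 in HeyA8_MDR (log2 fold change -1.46, adjusted p = 0.148, and -1.81 with an adjusted p of 0.0966 without the HeyA8 QC library, edgeR). UHRF1 was at 0.544 of its HeyA8 level in vehicle and at 0.975 in QC, where the HeyA8 QC library is the one that stood apart.

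**Figure D3:**
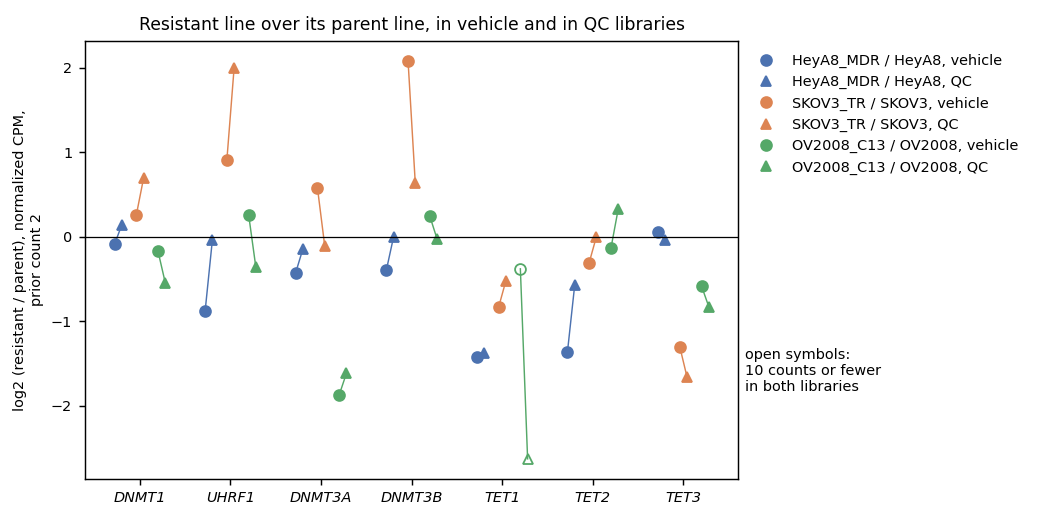
Log2 ratio of each resistant line to its parent for the 7 genes, with circles for vehicle and triangles for QC libraries joined by a line, and colours for the 3 families. Open symbols have 10 counts or fewer in both libraries. DNMT3B and UHRF1 lie above 0 in the SKOV3 family in both treatments, and TET3 lies lowest there. Among the filled symbols, DNMT3A lies lowest in the OV2008 family.

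The families were then compared with each other, in contrasts added after the data had been seen. The UHRF1 difference in the SKOV3 pair exceeded that in the HeyA8 pair by 2.02 on the log2 scale (SE 0.452, adjusted p = 0.00909, edgeR), and that in the OV2008 pair by 1.56 (SE 0.449, adjusted p = 0.0270). The TET3 difference was more negative in the SKOV3 than in the HeyA8 pair, by -1.48 (SE 0.319, adjusted p = 0.00748, edgeR). The DNMT3A difference was 2.02 higher in the SKOV3 than in the OV2008 pair (SE 0.456, adjusted p = 0.00805, edgeR). Thus 2 of 7 members passed in SKOV3 against HeyA8, where 18.8% of all genes did, and 2 of 7 in SKOV3 against OV2008, where 21.5% did. Without the HeyA8 QC library the contrasts with the HeyA8 pair were 2.39 for UHRF1 and -1.40 for TET3 (adjusted p = 0.00304 and 0.0243, edgeR). In OV2008 against HeyA8 0 of 7 passed, where 7.11% of all genes did, with the smallest adjusted p at 0.0767 for DNMT3A. Without the HeyA8 QC library the smallest was 0.0537 for TET2, and that of DNMT3A was 0.155 (edgeR). DNMT3B missed the threshold in each contrast (adjusted p = 0.0538, 0.113 and 0.735, edgeR), and the first was 0.0689 without the HeyA8 QC library.

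Taking the 3 families as replicates of resistance gave no member past a threshold. In the vehicle libraries 0 of 7 members had an adjusted p under 0.05 (0% of all genes, edgeR), and 0 of 7 an unadjusted one, where 3.71% of all genes did. In the QC libraries the counts were also 0 of 7 and 0 of 7, where 0% and 2.59% of all genes passed. DESeq2 gave 0 of 7 after adjustment in both, and 47 and 16 of all genes. With 3 pairs the smallest two-sided p of an exact sign-flip test is 0.25. TET1 was lower in the resistant line in the HeyA8 and SKOV3 families in both treatments, and no direction is read in the OV2008 family, which had 10 counts or fewer per library. TET2 was lower in 3 of 3 families in vehicle (mean log2 ratio -0.60, SD 0.664, n = 3) and in 1 of 3 in QC. TET3 was lower in 2 of 3 families in vehicle (-0.61, SD 0.678, n = 3) and in 3 of 3 in QC (-0.84, SD 0.809). The HeyA8 family showed almost no TET3 difference, at 0.05 in vehicle and -0.04 in QC on the log2 scale. Its QC value rests on the HeyA8 QC library that stood apart. DNMT3B had a mean of 0.65 in vehicle with an SD of 1.29, since the SKOV3 family stood at 2.09 and the other families at -0.40 and 0.25.

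The study asked which transcripts respond to QC and whether resistant lines respond otherwise. In the QC libraries of resistant lines DNMT3B had lower and TET2 higher levels than in the vehicle libraries, and neither difference held after adjustment. In resistant lines 0 of 7 members had an adjusted p under 0.05 (edgeR, 0% of all genes), and 2 of 7 had an unadjusted one, where 6.03% of all genes did. In sensitive lines 0 of 7 passed after adjustment (0% of all genes) and 0 of 7 before it, where 6.59% of all genes did. DESeq2 gave 0 of 7 members after adjustment in both groups, and 31 of all genes in sensitive and 0 in resistant lines.

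DNMT3B was at 0.809 of its vehicle level in HeyA8_MDR, 0.60 in SKOV3_TR and 0.501 in OV2008_C13. The fitted log2 fold change in resistant lines was -0.70 (SE 0.276, unadjusted p = 0.0272, adjusted p = 0.816, edgeR). In sensitive lines it was at 0.616 in HeyA8, 1.64 in SKOV3 and 0.604 in OV2008. It was thus lower with QC in 5 of 6 lines and higher in SKOV3. The fitted value in sensitive lines was -0.22, and 0.01 without HeyA8. DNMT3B is among the transcripts the study selected from these same libraries for resistant cells, so its direction in these libraries is not independent evidence. Apart from them, the study reports lower DNMT3B with QC by qPCR. It also reports less DNMT3B protein after longer treatment in HeyA8_MDR and further OC lines.

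TET2 was 1.44-fold higher with QC in HeyA8_MDR, 1.13-fold in SKOV3_TR and 2.10-fold in OV2008_C13, a log2 fold change of 0.59 (SE 0.236, unadjusted p = 0.0275, adjusted p = 0.816, edgeR). In sensitive lines the ratios were 0.832 in HeyA8, 0.913 in SKOV3 and 1.53 in OV2008, with a fitted value of 0.07, and 0.24 without HeyA8. Both lines of the OV2008 family had the highest ratios. Without OV2008_C13, neither TET2 nor DNMT3B had an unadjusted p under 0.05 in resistant lines.

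Whether the groups responded differently was tested as a contrast. For DNMT3B the difference, resistant minus sensitive, was -0.47 (SE 0.393, unadjusted p = 0.252, edgeR), and for TET2 it was 0.53 (SE 0.333, unadjusted p = 0.141, edgeR). Without HeyA8 these were -0.71 and 0.36. No difference was shown: 0 of 7 members passed after adjustment (0% of all genes) and 0 of 7 before it, where 1.16% of all genes did. DESeq2 gave 0 of 7 after adjustment and 1 of all genes.

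A single QC effect was then fitted over the 6 lines. After adjustment 0 of 7 members passed with edgeR (0% of all genes) and 0 of 7 with DESeq2, which called 518 of all genes. Before adjustment 1 of 7 passed, DNMT3B, where 15.2% of all genes did. Its log2 fold change was -0.46 (SE 0.198, unadjusted p = 0.0369, adjusted p = 0.295, edgeR). Over the lines the mean log2 ratio was -0.46 with an SD of 0.616 (n = 6, exact sign-flip p = 0.125, two-sided, where 0.03125 is the smallest p possible). For TET2 the mean was 0.33 with an SD of 0.502 (n = 6, exact sign-flip p = 0.1875), with higher levels in 4 of 6 lines. Without HeyA8 the fitted values were -0.42 for DNMT3B (unadjusted p = 0.079, edgeR) and 0.45 for TET2 (unadjusted p = 0.0231, adjusted p = 0.337, edgeR).

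The other members had smaller means and both directions among the lines. DNMT1 had ratios of QC to vehicle between 0.844 in SKOV3 and 1.14 in SKOV3_TR, with 3 lines above and 3 below 1. UHRF1 ranged from 0.546 in HeyA8, whose QC library stood apart, to 1.68 in SKOV3_TR, and DNMT3A from 0.645 in SKOV3_TR to 1.85 in OV2008_C13. TET3 ranged from 0.762 in SKOV3_TR to 1.36 in OV2008. Their exact sign-flip p-values over 6 lines lay between 0.5 and 1.

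**Figure D4:**
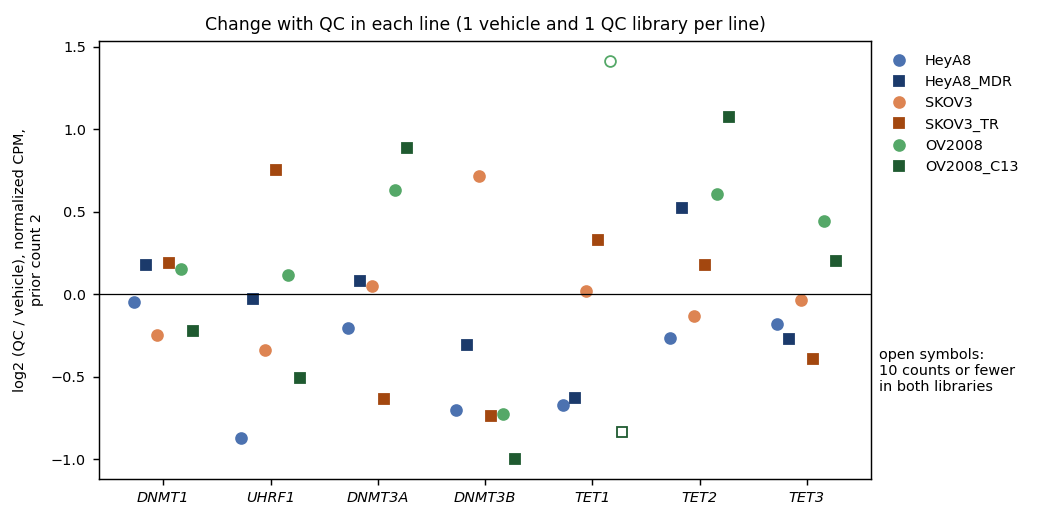
Log2 ratio of the QC to the vehicle library of each line for the 7 genes, with circles for sensitive and squares for resistant lines. Open symbols have 10 counts or fewer in both libraries. DNMT3B lies below 0 in 5 of 6 lines and above it in SKOV3, and TET2 lies highest in OV2008_C13 (2.10-fold).

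The partners of these enzymes were described from lists of known roles, by counts beside the share of all genes. In SKOV3_TR against SKOV3, where 31.5% of all genes passed, 6 of 17 measured cofactors of the methyltransferases were higher and 5 lower at an adjusted p under 0.05 (edgeR). CDCA7, a partner of the remodeller HELLS, had a log2 fold change of 1.90 (adjusted p = 4.71e-05, edgeR), CDCA7L one of 1.84 and NSD1 one of -1.93. Of 14 readers of methylated or unmethylated CpG, 1 was higher and 4 were lower, with ZBTB38 at -1.98 and MBD6 at -1.13, both lower, and CXXC4 at 4.11 (SE 0.71). CXXC4 had 0.377 and 0.182 CPM in SKOV3 and 4.70 and 5.46 CPM in SKOV3_TR (vehicle, then QC), so its fold rests on few counts. Of 16 genes of base excision and other steps of demethylation, 4 were higher and 2 lower, led by the cytidine deaminase APOBEC3B (4.81), GADD45A (2.40) and the abasic-site nuclease APEX1 (1.04, SE 0.194). APOBEC3B was also low in SKOV3, at 0.335 and 1.09 CPM against 14.3 and 25.3 CPM in SKOV3_TR (vehicle, then QC). Of 14 genes of the S-adenosylmethionine cycle 2 were higher and 3 lower, and of 16 genes of 2-oxoglutarate metabolism 3 were higher and 2 lower. In all, 64.7% of the cofactors passed, and between 31.2% and 37.5% of each other list. The cofactors PCNA, PCLAF, HELLS and LIG1 were higher in both SKOV3_TR libraries than in both SKOV3 libraries. The summed proliferation genes were so too, while 5 cofactors were lower. The part of proliferation in the share of cofactors was not tested. The list medians lay between -0.50 for the readers and 0.23 for 2-oxoglutarate metabolism.

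In OV2008_C13 against OV2008, 0 of 17 cofactors passed with edgeR, where 9.46% of all genes did. At an unadjusted p under 0.05, where 25.4% of all genes passed, 3 cofactors were higher and 2 lower. Among readers the unmethylated-CpG binding protein CXXC5 was higher (log2 fold change 1.93, adjusted p = 0.00134, edgeR), and ZBTB33 was lower (-1.01, adjusted p = 0.0358, edgeR). GADD45A was the 1 of 16 demethylation genes that passed (1.43, adjusted p = 0.0109, edgeR). Of the 2-oxoglutarate genes, the isocitrate dehydrogenase subunits IDH3B (0.86) and IDH3A (-0.95) passed in opposite directions. None of the 14 genes of the S-adenosylmethionine cycle passed after adjustment (edgeR), and 3 were lower at an unadjusted p under 0.05.

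In HeyA8_MDR against HeyA8, where 4.08% of all genes passed, MAT2A, which makes S-adenosylmethionine, was lower (log2 fold change -2.32, adjusted p = 0.00757, edgeR). Its level was 1419 CPM in the vehicle and 375 CPM in the QC library of HeyA8, and 237 and 104 CPM in HeyA8_MDR. The methyl-CpG binding reader ZBTB38 was also lower (-1.04, adjusted p = 0.0456, edgeR), at 367 and 253 CPM against 159 and 142 CPM. In both genes the HeyA8 QC library lay between the HeyA8 vehicle library and those of HeyA8_MDR. Without it the values were -2.92 for MAT2A and -1.30 for ZBTB38 (adjusted p = 0.000241 and 0.0193, edgeR).

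With QC, 0 genes of these 5 lists passed after adjustment in sensitive lines, resistant lines or all 6 lines with edgeR. At an unadjusted p under 0.05 over all 6 lines, 1 cofactor was higher and 5 were lower of 17, and 0 readers were higher and 3 lower of 14. The smallest p-values were those of EHMT2 (-0.35), SETDB1 (-0.33) and UHRF2 (0.30) among cofactors, with adjusted p-values of 0.198, 0.217 and 0.229 (edgeR). Of the S-adenosylmethionine cycle 0 were higher and 2 lower of 14, MTR (-0.38) and MAT2A (-0.68). Of the demethylation genes 2 were higher, GADD45B (0.56) and APOBEC3B (0.54), and 2 lower, and of the 2-oxoglutarate genes 3 were higher and 3 lower of 16. At this threshold 15.2% of all genes passed. Without the HeyA8 QC library MAT2A was at -0.44, and the 7 genes named kept their direction and an unadjusted p under 0.05.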

How the data were processed

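RNA was measured by RNA-seq with TruSeq libraries, 1 per line and treatment. The deposited values are the authors' raw read counts per gene, without normalization. The submitters' processing notes list STAR 2.7.3a, HTSeq 0.6.1p1 and GRCh38.p13, while the paper names TopHat with hg19 and HTSeq. Which applies, the annotation release and the strand setting are not given in the sources used here. Counts on the strand opposite to a gene may therefore be included.

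Symbols were paired with 58620 of 60669 Ensembl IDs, and the 2049 unpaired IDs hold 0.132% of the counts. Totals ran from 17782556 to 30585059 (median 22289428), so a member with under 10 counts is known only within wide counting error.

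Tests used edgeR 4.0.16 under R 4.3.3 (TMM, filterByExpr with a minimum count of 10 and a total of 15, quasi-likelihood test, two-sided, Benjamini-Hochberg over 18720 genes). QC effects were fitted with a term per line, group effects of resistance with a term per family on 6 libraries, and line pairs with a term per line and 1 QC effect over 12 libraries. Deviations from the group means correlated between both libraries of each line (r from 0.893 to 0.929), which are paired because they come from 1 line. Levels per length used the Ensembl canonical transcript. Ratios per line are log2 CPM with a prior count of 2. Single values were tested by exact sign-flip tests.

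Named are the 7 members, from each list the 3 genes with the smallest p in a comparison, and the 3 genes with the highest Pearson r with a member. PAX8 and the other ovarian epithelial genes named with it were picked with their values in view, outside that rule. So were MCM2, CDC6, MKI67, PCNA, PCLAF, HELLS, LIG1 and the germline genes named. Not every gene covered by the rule is reported here. The members and lists were chosen with earlier results of these data known. Alternatives were DESeq2 1.42.0, its size factors, library size alone, other filters (none, or 10 or more counts in each library), no term for line or family, and leaving out each line, pair or the HeyA8 QC library. The scripts were tested on simulated data. Figures were drawn with matplotlib 3.10.9.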

Additional observations from a re-analysis of the deposited data

Results flagged for a closer look

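Differences between the families in how a resistant line departed from its parent passed a test of the difference itself for 3 genes, in contrasts chosen after the data had been seen (edgeR's quasi-likelihood test). UHRF1 differed by 2.02 on the log2 scale (2.025, SE 0.452, adjusted p = 0.00909) between the SKOV3 and HeyA8 pairs and by 1.56 (1.565, SE 0.449, adjusted p = 0.0270) between the SKOV3 and OV2008 pairs. It was higher in both SKOV3_TR libraries than in both SKOV3 libraries. TET3 differed by -1.48 (SE 0.319, adjusted p = 0.00748) between the SKOV3 and HeyA8 pairs, with 27.8 and 21.2 CPM in SKOV3_TR against 67.0 to 68.6 CPM in SKOV3. DNMT3A differed by 2.02 (2.024, SE 0.456, adjusted p = 0.00805) between the SKOV3 and OV2008 pairs, with both OV2008_C13 libraries below both OV2008 libraries. Each family is 1 resistant line and 1 parent line, so family, selecting drug and line cannot be told apart.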

How the results depend on the processing

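Of 179 summary counts of members by setting, 158 stayed within 1.5 times the reported count. In resistant lines the 2 members with an unadjusted p under 0.05 became 1 with library size alone and 0 with no replicate block, and over all 6 lines the 1 member became 2 without a filter on low counts and 0 with no replicate block. When 1 line was left out these counts ran from 0 to 2 in resistant lines and from 0 to 2 over all lines, and from 0 to 1 in sensitive lines and in the difference. For the QC libraries of resistant and parent lines the count of 0 became 2 without a filter and ran from 0 to 1 when a pair was left out. In the HeyA8 pair the 2 members with an unadjusted p under 0.05 became 1 with at least 10 counts in every library. That filter takes TET1 out of the test, so TET2 alone could remain of the 2. After adjustment the HeyA8 pair had 1 member, not 0, without a filter, with DESeq2 and, over lines or libraries left out, 0 to 1, and the OV2008 pair had 2, not 1, without a filter and with DESeq2. The calls over all genes rose as well, in the HeyA8 pair from 763 to 2030 without a filter, 1776 with DESeq2 and 1879 without the HeyA8 QC library, and in the OV2008 pair from 1770 to 2474 without a filter and 2675 with DESeq2. Of 207 values of single members 5 reversed. In sensitive lines DNMT3B was 0.30 with no replicate block and ran from -0.73 (without SKOV3) to 0.043 (without OV2008), with 0.01 without HeyA8, and TET2 ran from -0.20 (without OV2008) to 0.24 (without HeyA8) when 1 line was left out. The DNMT3B difference between groups ran from -0.74 (without OV2008) to 0.033 (without SKOV3). In the QC and resistance group comparisons 0 genes passed after adjustment with edgeR both with and without the block, so no call could change there. The line pairs were not fitted without a term for line. In 9 of 9 alternatives each, DNMT3B, UHRF1 and TET3 in the SKOV3 pair and DNMT3A in the OV2008 pair kept their direction and an adjusted p under 0.05. Apart from the loss of TET1 under that filter, the cause of these shifts was not tested.

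TET1 is limited by depth, with at most 10 counts in the OV2008 family. The call rates over all genes also moved: in sensitive lines the number of genes after adjustment was 0 with edgeR, 31 with DESeq2 and 195 with edgeR without a filter. Library size alone moved the median of all genes in the OV2008 pair to 0.17 on the log2 scale.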

Other observations

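Cancer-testis and other germline genes, many of which are known to be silenced by DNA methylation in somatic cells, were near 0 in most lines. The 28 genes of that list summed to between 0.965 and 2.37 CPM in the HeyA8 and OV2008 families and to 10.1 and 8.45 CPM in SKOV3 (vehicle, then QC). In SKOV3_TR they summed to 114 and 163.6 CPM. MAGEB2, a cancer-testis antigen, had 56.3 and 100.4 CPM in SKOV3_TR and 0 and 0.0908 CPM in SKOV3. PRAME was at 34.4 and 30.1 CPM against 9.41 and 7.67 CPM, and was listed at 0 in the HeyA8 and OV2008 families. GAGE2A, which has near-identical copies and is uncertain for that reason, was at 20.0 and 30.4 CPM in SKOV3_TR and at 0.0418 and 0 CPM in SKOV3. Between 19 and 22 of the 28 genes had 0 counts in the SKOV3_TR libraries, and 3 of 28 passed the filter on low counts. SKOV3_TR is also the line with the highest DNMT3B and the lowest TET3 level, and no relation between these values was tested.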
